A study of Mus musculus with 27 samples.

Results

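The type I interferon response genes described here are 39 mouse genes, listed by name, that cells switch on after exposure to interferon alpha or beta. Of the 39, 38 had a probe matched on the array, among 37208 genes or transcripts measured, of which 20145 carried a gene symbol; no probe was matched to Mx2. Each gene was read by 1 probe, the brightest over all arrays. The list was made from gene names and not from a measured value, though with earlier results of these data known.

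The RNA came from A2lox dnFOS embryonic stem cells, a line grown from picked clones in which doxycycline (DOX) switches on a Flag-tagged dominant-negative FOS peptide (dnFOS). The peptide pairs with JUN family proteins and keeps them off DNA, so it lowers the activity of the transcription factor AP-1. The cells were differentiated as embryoid bodies for 3.75 days, FLK1+ cells were purified, and blast cultures were started with or without 1 µg/ml DOX. There were 13 groups on 27 arrays: FLK1+ cells, which were untreated only, and cultures after 5 h (FLK1+ 5h), after 1 day (d1 BC) and after 2 days, each without DOX and with DOX for the whole culture. The day 2 cultures were sorted into smooth muscle cells (SM), hemogenic endothelium 1 (HE1, KIT+ TIE2+ CD41-), hemogenic endothelium 2 (HE2, KIT+ TIE2+ CD41+) and hematopoietic progenitors (HP, KIT+ TIE2- CD41+). Untreated SM had 3 arrays and each other group had 2. Every group carried the dnFOS cassette, and no cells without it were given DOX, so an effect of DOX itself and an effect of dnFOS cannot be told apart. Stem cells had been kept on mouse embryonic fibroblast feeders before differentiation.

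In the type I interferon pathway, interferon alpha and beta bind the receptor chains IFNAR1 and IFNAR2, and the kinases JAK1 and TYK2 then phosphorylate STAT proteins, STAT2 among them. With IRF9 these form the complex ISGF3, which binds the interferon-stimulated response element (ISRE) in front of its target genes. Those targets include the IFIT proteins, which bind foreign RNA, the OAS enzymes, which activate RNase L, and ISG15, a ubiquitin-like modifier that USP18 removes. Interferon signalling is known to reach emerging blood stem and progenitor cells in the embryo as well as virus-infected cells.

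RefSeq promoters (assembly GRCm38.p6, from 250 bases before to 50 bases after the gene's start) were found for 29 of the 39 genes. The 250 bases before the start are printed for Ifit1, Isg15, Oas1a, Oasl2 and Xaf1, because these are the genes with a promoter entry among the 7 called with DOX over the sorted populations, as given further on. Each runs 5′ to 3′ on the gene's own strand. Capitals mark the ISRE core, searched as GAAA, any 2 bases and GAAA on either strand, so that it reads TTTC, any 2 bases and TTTC where it lies on the other strand.
Ifit1: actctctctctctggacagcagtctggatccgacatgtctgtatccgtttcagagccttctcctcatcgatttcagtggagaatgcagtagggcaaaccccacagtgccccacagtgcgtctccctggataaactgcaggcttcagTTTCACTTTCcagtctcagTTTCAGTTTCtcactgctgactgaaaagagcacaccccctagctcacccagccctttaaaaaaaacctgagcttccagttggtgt
Isg15: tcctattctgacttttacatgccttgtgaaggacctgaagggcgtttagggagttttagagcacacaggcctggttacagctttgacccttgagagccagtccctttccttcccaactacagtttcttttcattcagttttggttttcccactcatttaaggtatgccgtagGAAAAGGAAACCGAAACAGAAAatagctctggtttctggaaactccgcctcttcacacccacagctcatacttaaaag
Oas1a: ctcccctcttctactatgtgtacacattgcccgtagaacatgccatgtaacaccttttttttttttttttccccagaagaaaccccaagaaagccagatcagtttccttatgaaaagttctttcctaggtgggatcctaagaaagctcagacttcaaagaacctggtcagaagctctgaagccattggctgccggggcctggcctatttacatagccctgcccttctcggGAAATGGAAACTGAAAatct
Oasl2: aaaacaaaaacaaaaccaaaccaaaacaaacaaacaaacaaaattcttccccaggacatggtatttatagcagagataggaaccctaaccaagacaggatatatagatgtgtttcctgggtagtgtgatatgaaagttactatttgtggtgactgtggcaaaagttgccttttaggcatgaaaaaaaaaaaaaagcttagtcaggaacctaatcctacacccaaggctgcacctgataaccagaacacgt
Xaf1: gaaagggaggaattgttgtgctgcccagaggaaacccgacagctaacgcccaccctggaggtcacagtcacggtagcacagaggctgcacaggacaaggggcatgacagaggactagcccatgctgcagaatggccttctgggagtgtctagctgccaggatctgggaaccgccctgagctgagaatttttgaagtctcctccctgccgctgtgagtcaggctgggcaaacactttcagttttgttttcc

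The Ifit1 window lies at chr19:34640639-34640888 on the plus strand, and it held 2 separate ISRE cores on the reverse strand. The Isg15 window lies at chr4:156200819-156201068 on the minus strand, with 3 overlapping cores. The Oas1a window lies at chr5:120907526-120907775 on the minus strand, with 2 overlapping cores close to the start. Neither the Oasl2 window, at chr5:114896684-114896933, nor the Xaf1 window, at chr11:72301379-72301628, both on the plus strand, held these letters. Over the whole promoter windows, 12 of 29 members held the ISRE core, 41.4%, against 1079 of 27025 genes, 3.99%. The AP-1 motif TGANTCA was in 7 of 29, 24.1%, against 8.97%, and those genes were Ifi35, Ifit3, Ifitm3, Oas3, Rsad2, Trim30a and Xaf1. These matches describe letters in a window, not binding.

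Signals were compared as log2 levels relative to each array's 75th percentile, so a level of 0 is as bright as that percentile and each step of 1 is a doubling. That percentile ran from 78.8 to 732 intensity units, and 48.0% to 89.7% of probes were well above background. The lowest was untreated HE2 replicate 1, against 687 on replicate 2 and 303 and 340 in HE2 DOX. Untreated HE1 had 140 and 145, against 155 and 380 in HE1 DOX. The 89.7% was untreated SM replicate 2. Replicates correlated at 0.921 to 0.973 over probes. Hprt, the locus that carries the cassette, was higher on every DOX array than on every untreated array in 6 of 6 populations. Acta2, a smooth muscle actin, lay between 8.93 and 9.84 in SM, and Kit lay between 3.24 and 5.39 in the HE1, HE2 and HP groups. Tek, which encodes TIE2, read 0.58 and -1.42 in untreated HP, sorted as TIE2-, while replicate 2 of the TIE2+ groups HE1 DOX and HE2 DOX read 0.20 and -0.75, below the first of these. Itga2b, which encodes CD41, read 1.33 and 0.87 in HE1, 2.64 and 3.77 in HE2 and 3.25 and 3.01 in HP, but 1.94 and -0.82 in HE1 DOX, 3.83 and 0.05 in HE2 DOX and 0.43 and 2.61 in HP DOX. Replicate 2 of HE2 DOX and replicate 1 of HP DOX thus read lower for this marker than both untreated HE1 arrays, although CD41+ cells were sorted, so these arrays go against their sort on this marker. The median difference over the list was -1.40 in HP without that HP DOX array, -0.68 in HE2 without that HE2 DOX array and -0.34 in HE1 without HE1 DOX replicate 2, against -1.38, -0.43 and -0.04 with all arrays. The arrays lay on 5 slides, and every sorted population had each of its DOX arrays on the slide of an untreated array of the same population.

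The 38 genes did not share 1 pattern. Of the untreated groups, HP had the highest mean level for 27 of the 38 and d1 BC the lowest for 18. All 38 were well above background on both untreated HP arrays, against 26 on both FLK1+ arrays and 34 on both HP DOX arrays. The correlation of each gene with the mean of the others over the 27 arrays, which share groups and scaling, had a median of 0.60 and was highest for Rtp4, 0.87, which encodes a receptor transporter. It was 0.3 or more for all but 9 genes, and was lowest for the membrane restriction factor Ifitm3, -0.40, and for the transcription factor Irf1, -0.21.

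**Figure D1:**
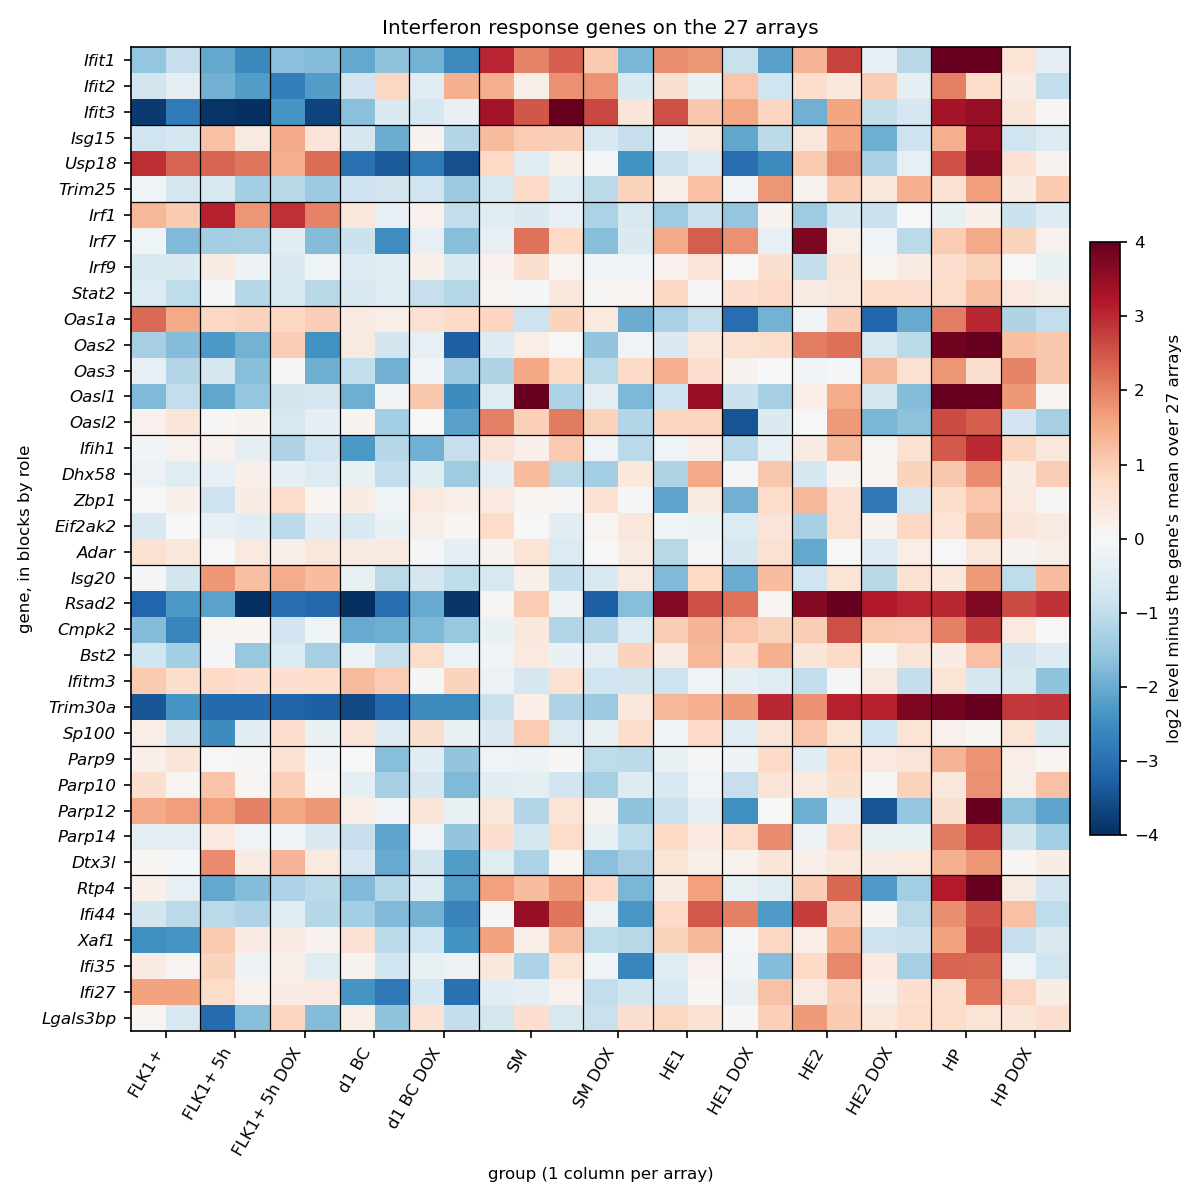
Heat map of the 38 genes (rows, in blocks by role) on the 27 arrays (columns, by group), coloured by the log2 level minus the gene's own mean over all arrays. Most rows are reddest in untreated HP and paler or blue in HP DOX, while the Irf1 and Ifitm3 rows are highest in the FLK1+, 5 h or day 1 groups.

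In HP, 37 of the 38 genes had a lower mean with DOX, where 32.0% of all genes did. Their median log2 fold change was -1.38, and that of all 25099 genes tested was 0.25. Only Ifit1 passed the test, which was limma's with Benjamini-Hochberg adjustment over all genes, at an adjusted p under 0.05 and at least 2-fold. The background was 0.0359% of genes called lower. Of the 38, 34 were detected on all arrays of both groups and 4, Ifit1 among them, entered the test through untreated HP only, where they are higher. With detection required in both groups Ifit1 is not tested, none of the 34 was called and their median was -1.17. By unadjusted p under 0.05 and at least 2-fold, 18 of the 38 were lower and none was higher, against 2.51% of all genes lower. In 29 of the 38 every DOX array was lower than every untreated array, against 12.5% of all genes. Fewer expressing cells and less RNA per cell cannot be told apart in sorted bulk RNA.

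Among the IFIT family, Ifit1, which binds RNA lacking a methylated cap, read -0.79 and -0.68 on the untreated HP arrays and -4.50 and -5.40 on the DOX arrays. The untreated pair agreed closely and the groups were far apart. The log2 fold change was -4.22 (SE 0.73, n = 2 arrays a group, limma adjusted p = 0.0405), and since neither DOX array was well above background it is given as at least 13.9-fold lower on the scale used here. This size depends on how background was handled: the log2 fold change was -1.78 (limma adjusted p = 0.134) with normexp background correction and -2.78 (limma adjusted p = 0.00359) with the authors' processed values. Ifit1 failed the test in 16 of 33 other settings, the other versions of the processing included, among them quantile normalization (limma adjusted p = 0.0679). Over 18 versions of the array processing, some run before the one used here was chosen, this adjusted p ran from 0.0374 to 0.0622 and passed in 10. Leaving out any 1 of the 4 HP arrays also ended the call, with adjusted p = 0.109 to 0.605, and only on leaving out untreated replicate 1 was another gene of the 38 called, Parp12. Ifit3 had a log2 fold change of -3.14 and Ifit2 of -1.70, with no overlap between the groups and no call.

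The 3 genes of the ISG15 system also had lower means with DOX. Isg15 read 2.95 and 4.94 without DOX and 0.70 and 0.95 with it. Both treated arrays were low, and the untreated arrays differed from each other. The log2 fold change was -3.12 (SE 0.68, limma adjusted p = 0.139). Usp18, the protease that removes ISG15 and damps the receptor, read 2.27 and 3.29 without DOX and 0.25 and -0.18 with it, a log2 fold change of -2.74 (SE 0.65, limma adjusted p = 0.235). Trim25, a ubiquitin ligase that activates the RNA sensor RIG-I, had -0.45 and overlapping arrays.

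Of the 5 OAS family genes, 4 were lower with DOX at unadjusted p under 0.05, and Oas3 was the 1 gene of the 38 with a higher mean, at 0.32. Oas1a read 0.91 and 1.88 without DOX and -2.32 and -2.12 with it (log2 fold change -3.61, SE 0.72, limma adjusted p = 0.0958). Oas2 read -0.24 and 0.67 against -2.91 and -3.03, and its log2 fold change was -3.18. Oasl2, an OAS-like protein, read 0.17 and -0.05 against -3.23 and -3.79, and its log2 fold change was -3.57 (SE 0.88, limma adjusted p = 0.271). In these 3 genes the groups were well separated on every array and the call was missed.

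The PARP family and DTX3L hold ADP-ribosyltransferases and a partner ubiquitin ligase, and all 5 had a lower mean. Parp14 read 0.38 and 1.09 without DOX and -2.44 and -3.11 with it (log2 fold change -3.52, SE 0.63, limma adjusted p = 0.0539). Parp12 had the widest difference of the 38 by log2 fold change, -4.84 (SE 1.12, limma adjusted p = 0.212, at least 23.5-fold lower since neither DOX array was well above background). Its untreated arrays did not agree, reading -2.29 and 2.34 against -4.57 and -5.06 with DOX. Without untreated replicate 2 its log2 fold change was -2.52, and without untreated replicate 1 it was -7.16. This size also depended on the processing, at -2.27 with normexp background correction and -2.50 in the first version run. In that version Ifit1, at -4.18, had a wider difference than Parp12.

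Of the other interferon-inducible genes, Rtp4 read 0.53 and 2.02 without DOX and -2.30 and -3.42 with it (log2 fold change -4.14, SE 0.78, limma adjusted p = 0.0675). Xaf1, whose product opposes the apoptosis inhibitor XIAP, read -0.65 and 0.39 against -3.17 and -2.82 (log2 fold change -2.87, SE 0.64, limma adjusted p = 0.160). Both were separated between the groups without passing. Ifi35 had a log2 fold change of -2.81, and Lgals3bp, a secreted glycoprotein, had -0.06 with overlapping arrays.

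The 4 signalling and transcription factor genes had lower means with DOX, and none was called. Irf9, the DNA-binding part of ISGF3, read 1.73 and 1.98 without DOX and 1.09 and 0.81 with it, a log2 fold change of -0.91. Stat2 read 2.25 and 2.72 against 1.92 and 1.77, -0.64. Irf7, the factor that amplifies interferon alpha production, read -3.12 and -2.65 against -3.26 and -3.97, -0.73. None of these 3, nor Irf1 at -0.65, reached 2-fold, although in all 4 the DOX arrays read lower than the untreated ones. The median over these 4 was -0.69, as it was over the 5 nucleic acid sensors and effectors. The other role medians were -1.07 for the 7 other antiviral effectors, -1.42 for the PARP family and DTX3L, -2.45 for the 6 other inducible genes, -2.74 for the ISG15 system, -3.14 for the IFIT family and -3.57 for the OAS family. Differences between roles were not tested.

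In the other sorted populations Irf7 also had a lower mean with DOX. It read -4.48, -1.98 and -3.35 in SM against -5.85 and -4.72 with DOX (log2 fold change -2.02), and -0.40 and -3.90 in HE2 against -4.27 and -5.21 (-2.59). Both of these were separated, though the untreated HE2 arrays differed widely. In SM and in HE2 Irf7 entered the test through the untreated group only, where it is higher. In HE1 it read -2.62 and -1.74 against -2.32 and -4.47 (-1.22), which overlapped. Its average over the 4 populations was -1.64 (SE 0.51, limma adjusted p = 0.221).

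Sensors and effectors varied. Ifih1, the RNA sensor MDA5, read -0.53 and 0.00 without DOX and -2.13 and -2.55 with it (log2 fold change -2.08), while Eif2ak2, the kinase PKR, had -0.52 and the RNA editor Adar -0.03. Bst2, the virus tether tetherin, read 2.22 and 3.09 against 1.20 and 1.39, a log2 fold change of -1.36. Ifitm3 read 3.17 and 1.94 against 1.97 and 1.01, a log2 fold change of -1.07 with overlapping arrays. Cmpk2, a mitochondrial nucleotide kinase, had -2.19, and Rsad2, the antiviral enzyme viperin that lies beside it in the genome, had -0.62. Differences between these genes were not tested.

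**Figure D2:**
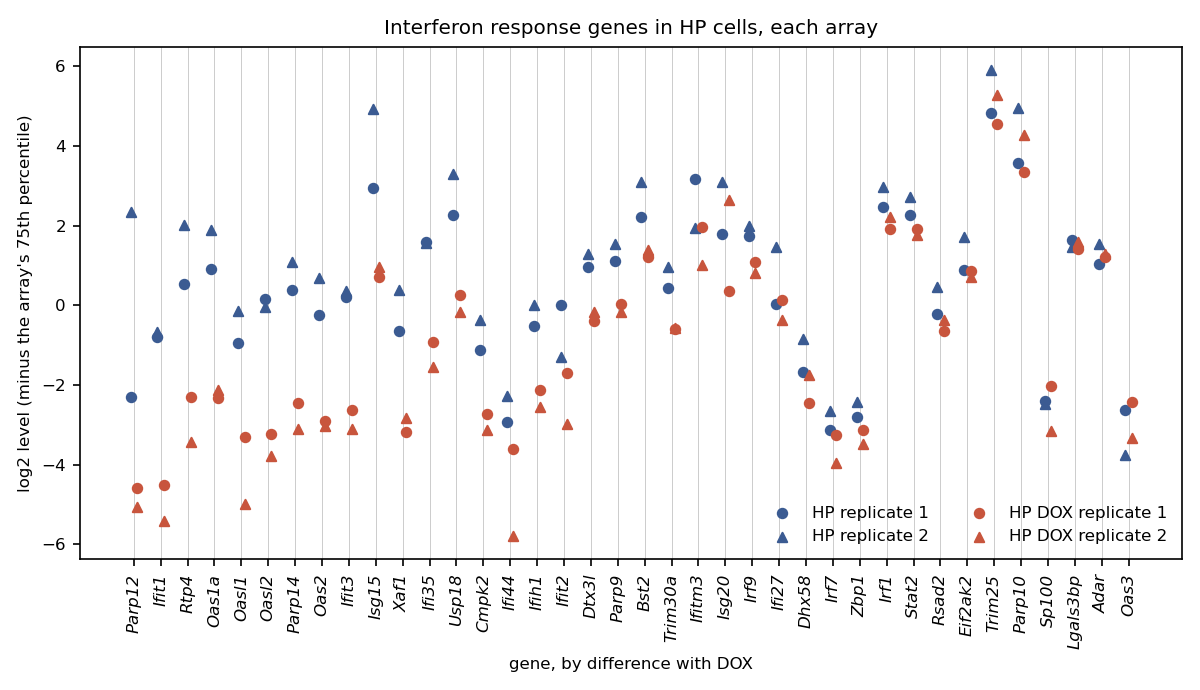
Log2 level of each of the 38 genes on the 2 untreated HP arrays (blue) and the 2 HP DOX arrays (red), with circles for replicate 1, triangles for replicate 2 and genes ordered by the difference of the means. Red points lie below blue points in 29 genes, and Parp12, at the far left, shows the wide gap between its untreated arrays.

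Each untreated HP array shared a slide with a DOX array. On 1 slide 34 of the 38 genes were lower with DOX, with a median difference of -1.14, and on the other 36 were lower, with a median of -1.70. With slide as a fixed block in the fit 7 of the 38 were called lower, of 51 genes called on the whole array, and with slide as a random block 11, of 89. A fit of the HP groups alone called no gene, of the list or of the array.

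Myeloid markers were lower in HP DOX as well. All 15 myeloid markers measured, among them the receptor gene Csf1r and the transcription factor gene Spi1, were well above background on all HP and HP DOX arrays, and 12 of the 15 had a lower mean with DOX, with a median log2 fold change of -2.55 and 9 lower at unadjusted p under 0.05 and at least 2-fold. Spi1 had a log2 fold change of -3.19 (limma adjusted p = 0.490), and Csf1r of -1.48. Their summed signal, in multiples of the 75th percentile, was 220.3 to 232.9 in HP and 144.3 to 208.0 in HP DOX. The 6 fibroblast markers summed to 1.74 to 4.66 in HP and 1.18 to 1.53 in HP DOX, against 37.1 to 115 in SM. The 6 endothelial markers summed to 30.4 to 49.4 in HP and 58.7 to 71.5 in HP DOX, with 3 of the 6 higher by mean. All 5 erythroid markers tested had a higher mean with DOX, with a median log2 fold change of 0.84, and so had the 4 lymphoid and plasmacytoid markers tested. The part of these cell types in the result was not tested.

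In the other day 2 populations the differences ran the same way for a core of genes and were smaller over the list. In SM, 25 of 33 genes tested had a lower mean, with a median log2 fold change of -0.66 against 0.09 over all genes. None was called, where 0.0210% of all genes were, and 9 were lower at unadjusted p under 0.05 and at least 2-fold, against 2.00% of all genes. In 14 every DOX array lay below every untreated array, against 6.15%. Of the 33, 4 entered the test through untreated SM only, where they are higher, Ifit1 and Rsad2 among them. Another 1 entered through SM DOX only. Ifit1 read -1.99, -3.05 and -2.66 in SM and -3.99 and -6.87 in SM DOX (log2 fold change -2.86, SE 0.66, limma adjusted p = 0.406). The DOX arrays disagreed: the log2 fold change was -1.43 (limma adjusted p = 0.99996) without SM DOX replicate 2 and -4.30 (limma adjusted p = 0.0255) without SM DOX replicate 1, the 1 call that leaving out an array gave in SM. It was -0.99 with normexp background correction and -0.84 with the authors' processed values. Rsad2 read -3.19, -2.23 and -3.46 against -6.52 and -4.95 (log2 fold change -2.77, at least 3.60-fold lower), and Xaf1 -0.65, -1.99 and -1.03 against -3.26 and -3.37 (log2 fold change -2.09). Within slides 29 and 28 of the 33 genes were lower. The myeloid markers also had lower values in SM DOX, with a summed signal of 12.6 to 16.1 against 22.6 to 41.8 in SM. All 6 erythroid markers had a lower mean as well, with a median log2 fold change of -1.57, and so did all 5 pluripotency markers, with a median of -1.34. The part of these cell types was not tested.

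In HE1, 18 of 32 genes had a lower mean with DOX, with a median of -0.04 against 0.09 over all genes, and -0.38 to 0.24 over all settings. None was called, and 0% of all genes were. Of the 32, 5 were lower at unadjusted p under 0.05 and at least 2-fold, against 0.677%, and 9 had every DOX array below every untreated array, against 8.38%. Ifit1 read -3.18 and -3.28 without DOX and -5.94 and -7.19 with it (log2 fold change -3.34, at least 2.09-fold lower). Oasl2 read -1.61 and -1.58 against -5.92 and -3.05 (-2.89), and Usp18 -1.21 and -0.88 against -3.37 and -2.88 (-2.08). These 3 were separated on every array, while the median over the list stayed near 0. All 3 entered the test through untreated HE1 only, where they are higher, as did 5 of the 32 genes in all. Another 1 entered through HE1 DOX only. The counts above include these genes.

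In HE2, 24 of 35 genes had a lower mean, with a median of -0.43 against 0.17. The median turned to 0.04 without untreated HE2 replicate 2 and with median scaling, and over all settings ran from -0.81 to 0.04. None was called, and 0% of all genes were. Of the 35, 10 were lower at unadjusted p under 0.05 and at least 2-fold, against 3.83%, and 14 had every DOX array below every untreated array, against 14.4%. Rtp4 read -1.66 and -0.34 without DOX and -4.90 and -4.02 with it (log2 fold change -3.46). Oas1a read -1.25 and -0.15 against -4.30 and -3.13 (-3.01), and Oas2 -2.06 and -1.90 against -4.75 and -5.19 (-2.99, at least 5.60-fold lower). Each of the 3 had a limma adjusted p of 0.497. All 3 entered the test through untreated HE2 only, where they are higher, as did 6 of the 35 genes in all. Another 4 entered through HE2 DOX only. The counts above include these genes. Of 14 myeloid markers tested in HE2, 13 had a lower mean with DOX, and their part was not tested.

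Averaged over SM, HE1, HE2 and HP, 7 of the 38 genes were called lower, and 0.307% of all genes were. Ifit1 fell by 3.29 on the log2 scale (SE 0.36, limma adjusted p = 0.000177). No DOX array of HE1, HE2 or HP read it well above background, so this size rests partly on signals near background. Rtp4 fell by 2.75 (SE 0.38, adjusted p = 0.00185 by limma) and Oasl2 by 2.72 (SE 0.43, adjusted p = 0.00650). These sizes depended on the setting, over which Ifit1 ran from -3.65 to -1.14, Rtp4 from -3.08 to -1.63 and Oasl2 from -3.07 to -1.40. Oas1a fell by 2.27 (adjusted p = 0.00565), Isg15 by 2.25 (adjusted p = 0.00365; -2.50 to -2.001 over settings), Usp18 by 2.12 (adjusted p = 0.00435) and Xaf1 by 1.84 (adjusted p = 0.0110). They are an RNA-binding IFIT protein, OAS family members, the ISG15 modifier and its protease, Rtp4 and Xaf1, and none of the 4 transcription factor genes of the list was called. Leaving out 1 array at a time gave 7 to 9 called genes, and the other settings gave 2 to 17. With detection required in all groups, 2 genes were called. Ifit1, Oas1a, Oasl2, Rtp4 and Usp18 were then not tested, because each lacked detection on some DOX arrays. The median over the 38 was -0.70, against 0.07 over all genes. Of the 15 myeloid markers 13 had a negative average and 2 were called lower, and their part was not tested.

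Of the 38, 18 had a negative log2 fold change in all 4 populations, against 10.8% of the 25099 genes tested in HP. In 6, Ifit1, Isg15, Oasl2, Rsad2, Rtp4 and Xaf1, every DOX array lay below every untreated array in all 4, against 0.267% of those genes. Isg15 illustrates them, at 2.75, 2.50 and 2.46 against 0.88 and 0.56 in SM, 1.28 and 1.83 against -0.58 and 0.42 in HE1, and 1.95 and 3.05 against -0.46 and 0.67 in HE2.

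**Figure D3:**
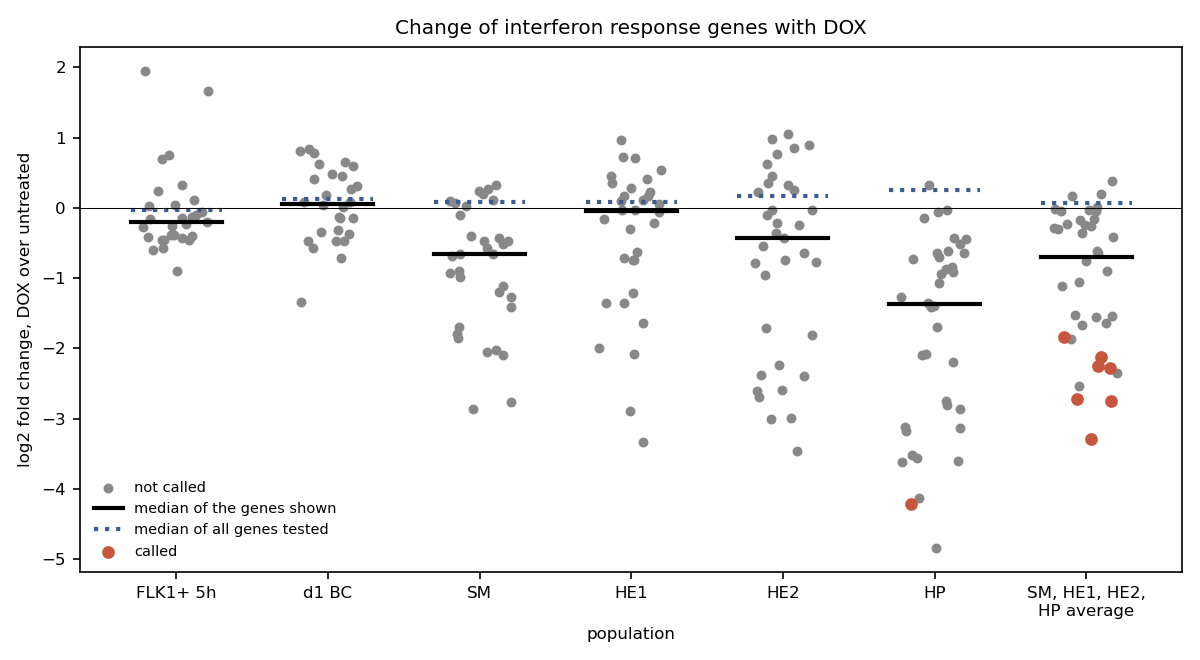
Log2 fold change with DOX of the genes tested in each population and in the average of the 4 sorted populations (1 point per gene, called genes in red), with the median of those genes as a solid line and the median of all genes tested as a dotted line. The solid line lies lowest in HP, at -1.38, and the red points are Ifit1 in HP and 7 genes in the average.

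Whether the difference with DOX was larger in HP than in another population was tested directly. The mean difference was more negative in HP for 34 of the 38 genes against SM, 33 against HE1 and 32 against HE2, where 43.7%, 44.3% and 49.3% of all genes were. None of these differences was called, and neither was any other gene, 0% in each of the 3 tests, although before adjustment 4, 9 and 5 of the 38 were lower by at least 2-fold with p under 0.05, against 0.684%, 0.857% and 1.11% of all genes. Parp14 in HP against HE1 had the smallest p, with a difference of log2 fold changes of -4.25 (SE 0.89, limma adjusted p = 0.848). A size of response particular to HP was therefore not shown by this test.

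At the earlier times no gene of the list was called. At 5 h, 0.00421% of all genes were called with DOX, and 20 of 29 members tested had a lower mean, with a median of -0.20 against -0.04 over all genes. On the 1 slide that held both an untreated and a DOX array of this time, 14 of 29 were lower. Lgals3bp read -2.16 and -0.78 without DOX and 1.77 and -0.82 with it (log2 fold change 1.95), Sp100, a nuclear body protein, -5.08 and -2.97 against -1.90 and -2.84 (1.66), and Ifih1 -2.82 and -3.34 against -4.19 and -3.78 (-0.91). The first of these 3 rests on 1 DOX array and the second on 1 untreated array. Ifit1 was not well above background on any array at this time.

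In d1 BC, 0.00835% of all genes were called, and 12 of 28 members had a lower mean, with a median of 0.06 against 0.13. Xaf1 read -1.67 and -3.33 without DOX and -3.05 and -4.63 with it (log2 fold change -1.34). Bst2 read 1.70 and 0.99 against 2.67 and 1.70 (0.84), and Isg15 0.81 and -0.49 against 1.64 and 0.32 (0.81). For Xaf1 and Isg15 the arrays of the groups overlapped, and replicates lay further apart than the group means.

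The untreated cultures show when the genes were on without dnFOS. From FLK1+ cells to 5 h, 2 of the 28 genes tested were called higher, where 2.92% of all genes were. Xaf1 rose from -4.70 and -4.59 to -1.20 and -1.91 (log2 fold change 3.09, at least 6.23-fold, limma adjusted p = 0.0116). Cmpk2 rose from -4.85 and -5.75 to -3.01 and -3.03 (2.28, at least 2.27-fold, adjusted p = 0.0300 by limma). Over 18 other settings Xaf1 was not called or not tested in 7 and Cmpk2 in 12, with a log2 fold change down to 0.24. Neither was well above background in FLK1+ cells, so both entered the test through the 5 h group only, where they are higher.

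From 5 h to d1 BC, 3 of the 30 genes tested were called lower, against 1.02% of all genes. Usp18 fell from 2.01 and 1.83 to -3.31 and -3.67 (log2 fold change -5.41, limma adjusted p = 0.000353). Ifi27, a mitochondrial protein, fell from 0.07 and -0.52 to -3.05 and -3.54 (-3.07, adjusted p = 0.0213 by limma), and Dtx3l from 1.42 and -0.13 to -1.14 and -2.48 (-2.45, adjusted p = 0.0454). Over 18 other settings the call was lost in 1 for Usp18, 5 for Ifi27 and 10 for Dtx3l. Over the list 19 of 30 were lower, with a median of -0.62 against 0.03.

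From d1 BC into SM, 27 of 32 genes had a higher mean and 4 were called higher, against 0.234% of all genes. A lower mean was found in 5 of the 32, against 48.8% of all genes. Ifit1 rose from -7.10 and -6.66, neither well above background, to between -3.05 and -1.99 (log2 fold change 4.31, at least 4.67-fold, limma adjusted p = 0.00816). Ifit3 rose from -4.80 and -3.71 to 0.19, -0.64 and 0.86 (4.39, adjusted p = 0.0268 by limma), Usp18 from -3.31 and -3.67 to 0.48, -0.76 and -0.09 (3.37, adjusted p = 0.0186), and Rsad2 from -7.26 and -6.27 to -3.19, -2.23 and -3.46 (3.80, at least 3.55-fold, adjusted p = 0.0268). Ifit1 and Rsad2 entered this test through SM only, where they are higher, as did 4 of the 32 genes in all, and with detection required in both groups 1 of 28 was called. Over 19 other settings Ifit1 was not called or not tested in 8, Ifit3 in 11, Usp18 in 9 and Rsad2 in 14. In the same step 10 of 11 myeloid markers tested had a higher mean and 1, Tyrobp, was called. All 6 erythroid markers had a higher mean, with a median log2 fold change of 3.40, and 1, Hbb-y, was called. All 6 fibroblast markers (median 1.63) and all 5 pluripotency markers (median 1.00) had a higher mean too, where the median over the list was 0.74. The part of these cell types was not tested.

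From d1 BC into HE1, 28 of 34 had a higher mean and 5 were called higher, against 2.06% of all genes. A lower mean was found in 6 of the 34, against 47.7% of all genes. The d1 BC and HE1 arrays shared no slide. From these groups alone, a slide difference and this step therefore cannot be told apart, for any gene called in it. Rsad2 rose to 0.42 and -0.66 (log2 fold change 6.65, at least 25.5-fold, limma adjusted p = 0.000371). Trim30a, an inhibitor of inflammatory signalling, rose from -7.01 and -6.57 to -2.09 and -1.97 (4.75, at least 6.76-fold, adjusted p = 0.000672 by limma), and Cmpk2 from -5.12 and -5.07 to -2.15 and -1.75 (3.14, at least 7.06-fold, adjusted p = 0.00411). Ifit1 rose to -3.18 and -3.28 (3.65, at least 2.96-fold) and Usp18 to -1.21 and -0.88 (2.44). Rsad2, Trim30a, Cmpk2 and Ifit1 were not well above background on any d1 BC array, so they entered the test through HE1 only, where they are higher, as did 6 of the 34 genes in all. With detection required in both groups 25 genes were tested and none was called. Over 18 other settings Rsad2 and Trim30a were not called or not tested in 2 each, Cmpk2 in 6, Ifit1 in 9 and Usp18 in 13, and the log2 fold changes of Rsad2, Trim30a and Cmpk2 ran down to 2.92, 1.63 and 1.25. Leaving out 1 array gave 2 to 3 called genes. Of 10 myeloid markers tested in the same step, 3 were called higher, and their part was not tested.

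From HE1 to HE2 none of 34 was called, against 2.65% of all genes, and the lowest limma adjusted p was 0.101. At unadjusted p under 0.05 and at least 2-fold, 4 were higher and 1 was lower, against 2.65% and 6.99% of all genes. From HE2 to HP none of 38 was called either, against 0.00395% of all genes, although 33 had a higher mean, with a median of 1.24 against 0.08, and 15 were higher at unadjusted p under 0.05 and at least 2-fold, against 3.09% of all genes. A lower mean was found in 5 of the 38, against 45.8% of all genes. Of the 38, 7 entered this test through HP only, where they are higher. Of 15 myeloid markers 13 had a higher mean in this step, with a median of 1.46, and 7 were higher by the same rule; their part was not tested. In the step with both together, from HE1 to HP, 6 were called higher, against 1.83% of all genes, and 34 of 38 had a higher mean. A lower mean was found in 4 of the 38, against 48.8% of all genes. Here too 7 of the 38 entered through HP only, where they are higher, and 1 of these, Oas2, was called.

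Those 6 span sensing and effector roles. Usp18 rose from -1.21 and -0.88 to 2.27 and 3.29 (log2 fold change 3.82, limma adjusted p = 0.00148), and Oas2 from -4.70 and -3.67 to -0.24 and 0.67 (4.40, adjusted p = 0.00670 by limma). Oas1a rose from -2.44 and -2.04 to 0.91 and 1.88 (3.63, adjusted p = 0.00515), and Ifih1 from -3.15 and -2.73 to -0.53 and 0.00 (2.67, adjusted p = 0.00579). Trim30a rose from -2.09 and -1.97 to 0.42 and 0.97 (2.73, adjusted p = 0.0168), and Rtp4 from -2.36 and -0.997 to 0.53 and 2.02 (2.95, adjusted p = 0.0342). Leaving out 1 array gave 1 to 6 called genes, with 1 left without HP replicate 2 or without HE1 replicate 1. Over 18 other settings Ifih1, Rtp4 and Trim30a were not called in 5 each, Oas2 in 3, Oas1a in 2 and Usp18 in 0, and the log2 fold change of Oas2, detected on 1 of the 2 HE1 arrays, ran down to 1.69. In the same step 9 of 15 myeloid and 4 of 6 hematopoietic progenitor markers were called higher, and their part was not tested. The HE1 to HP and the DOX comparison in HP share the untreated HP arrays.

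**Figure D4:**
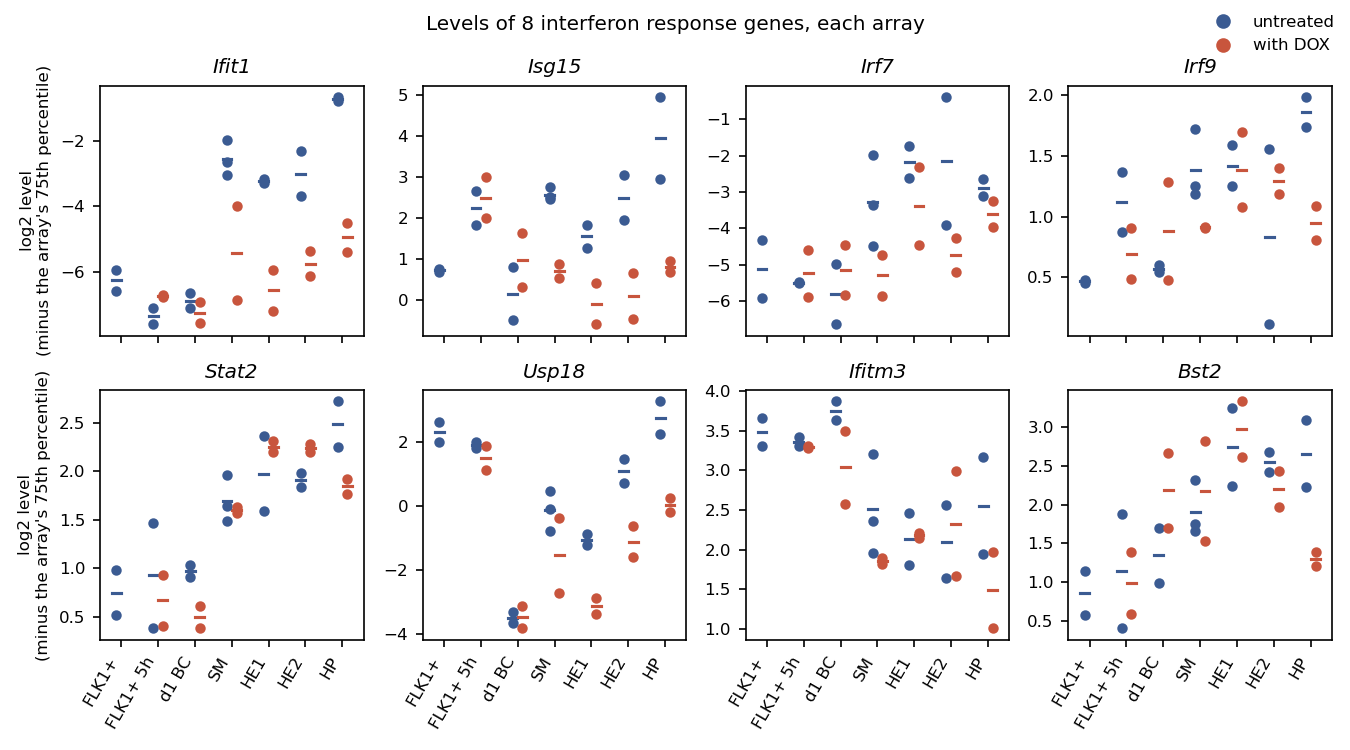
Log2 level of 8 genes of different roles on every array (points) with group means (bars), untreated in blue and with DOX in red, along the 7 populations. Ifit1 and Usp18 are low in d1 BC and high in untreated HP, whereas Stat2 and Irf9 stay within a narrow range and Ifitm3 does not rise toward HP.

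Genes of the pathway outside the 38 were counted from lists named by role. Among the interferon ligands, Ifnb1, which encodes interferon beta, read -1.99 and -1.27 in HP and -4.03 and -5.85 in HP DOX (log2 fold change -3.31, SE 0.90, limma adjusted p = 0.372, at least 7.28-fold lower). It was higher in untreated HP than in any other group on every array, and its rise from HE1, where it read -5.29 and -5.83, was called (log2 fold change 3.93, at least 4.38-fold, limma adjusted p = 0.0132). From HE1 to HP 1.83% of all genes were called higher. No HP DOX or HE1 array read Ifnb1 well above background, so it entered both tests through untreated HP only, where it is higher. The other 4 ligands tested in HP had higher means with DOX. Interferon alpha genes are nearly identical in sequence, so their probes cannot be tied to 1 gene.

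Of the receptors and kinases, 6 of 8 tested had a lower mean with DOX in HP and 2 a higher one, and none was called. In 4, Ifngr1, Ifngr2, Il10rb and Tyk2, every DOX array lay below every untreated array, against 12.5% of all genes. Il10rb was lower at unadjusted p under 0.05 and at least 2-fold, against 2.51% of all genes. Ifnar1 read 2.37 and 3.37 without DOX and 2.37 and 3.21 with it (log2 fold change -0.08), and Ifnar2 2.07 and 2.97 against 1.54 and 2.60 (-0.45). Their arrays overlapped. Tyk2, the receptor-bound kinase, read 0.60 and -0.84 against -2.79 and -1.24 (log2 fold change -1.89, SE 1.23, limma adjusted p = 0.998), the widest difference of the 8 by log2 fold change. Its DOX arrays lay far apart in the other sorted populations, at 0.59 and -2.59 in SM, -0.04 and -3.06 in HE1 and 0.52 and -3.28 in HE2. These genes were named after their values were seen. Ifnlr1, a chain of the interferon lambda receptor, was called lower from 5 h to d1 BC (log2 fold change -3.25, limma adjusted p = 0.0483).

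**Figure D5:**
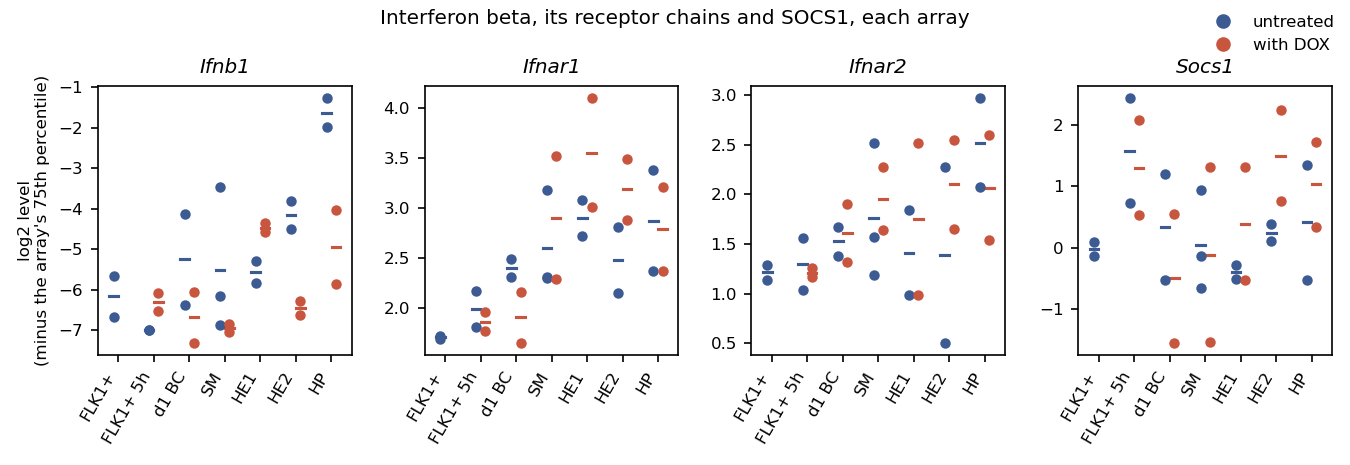
Log2 level of Ifnb1, Ifnar1, Ifnar2 and the feedback inhibitor gene Socs1 on every array (points) with group means (bars), untreated in blue and with DOX in red, along the 7 populations. Ifnb1 stands at -1.99 and -1.27 in untreated HP, above all its other arrays, while Ifnar1, Ifnar2 and Socs1 overlap with and without DOX in HP.

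Of 13 genes of nucleic acid sensing tested in HP, 9 had a lower mean with DOX and none was called. The DNA sensor Cgas and the adaptor Myd88 were called higher from HE1 to HP (log2 fold changes 2.39 and 1.77), and Sting1, the adaptor downstream of cGAS, from d1 BC to HE1 (3.25). Of 9 negative regulators, 5 had a lower mean with DOX in HP and none was called, and Socs1, the feedback inhibitor of JAK kinases, read -0.53 and 1.35 without DOX and 0.34 and 1.73 with it (0.62). The phosphatase gene Ptpn6 was called higher from HE1 to HE2 and from HE1 to HP (3.95 in the second), and Samhd1, a nucleotide-cleaving enzyme, from 5 h to d1 BC (2.35).

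Of 19 further interferon-stimulated genes tested in HP, 15 had a lower mean with DOX and none was called, with a median of -0.54. At unadjusted p under 0.05 and at least 2-fold, 6 were lower, against 2.51% of all genes. The chemokine gene Cxcl10 read -0.62 and 1.19 against -6.14 and -2.86 (log2 fold change -4.79, SE 1.23, limma adjusted p = 0.296). In untreated cultures it had a called rise of 7.75 from FLK1+ to 5 h and a called fall from d1 BC to HE1 (log2 fold change -4.91). The chemokine gene Ccl5 was called higher from HE1 to HP (4.45, at least 17.1-fold) and read -0.25 and 0.92 in HP against -1.79 and -1.22 with DOX (-1.84). No HE1 array read Ccl5 well above background, so it entered the HE1 to HP test through HP only, where it is higher. Cd274, which encodes PD-L1, was called higher from HE1 to HP (3.11), Uba7, the enzyme that activates ISG15, from d1 BC to HE1 (3.34), and Phf11d was called lower from 5 h to d1 BC (-3.78).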

How the data were processed

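Total RNA was labelled with Cy3 and hybridised to 27 one-colour Agilent SurePrint G3 Mouse 8x60K arrays. The deposited scanner files give intensity values for 62976 spots each. The authors made them with Agilent Feature Extraction (10.7.1.1 per the submitters' processing notes, 10.7.3.1 per the file headers), which subtracts background and removes spatial trends, and they also name limma. The deposited table of processed values is on a log2 scale by the authors, with its normalization not given in the sources used here, and 27 of 27 of its columns followed their own array. It served as an alternative only.

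Processed signals of a probe's spots were averaged without spots marked as outliers, log2 transformed and centred on each array's 75th percentile. Where every spot of a probe on an array was so marked, all its spots were averaged, which applied to 832 values. Symbols came from RefSeq accessions in the files through a RefSeq gene table, and each gene was read by the probe with the highest mean over all arrays. The model (limma 3.58.1 in R 4.3.3) held 13 group means and 28318 features detected (the scanner software's mark for well above background) throughout at least 1 group, with 14 residual degrees of freedom. A gene was tested where every array of at least 1 compared group detected it, p-values were adjusted by Benjamini-Hochberg over all genes tested, and a call needed an adjusted p under 0.05 and at least 2-fold. Where a gene was not well above background on any array of a group, the difference is given as a lower bound, set against the lowest signal well above background on each array or the probe's own signal if higher. The steps were tested on simulated data.

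The genes and lists were chosen with earlier results of these data known. The processing version used was chosen after results were seen, to follow an earlier description of these data; 18 versions were run. 1 gene is not reported here. Genes named were those called in a comparison, the 3 with the largest difference in each DOX comparison and Ifit1, Isg15, Irf7, Irf9, Stat2, Usp18, Ifitm3 and Bst2, which are given by array in HP and, for the rest of their arrays, in the plot of 8 genes; further genes are given mostly by fold change. The labels do not say whether arrays of a group came from separate cultures, so p-values measure the spread between these arrays, which may be technical, and the number of arrays limits the precision. Background correction, scaling, filters, probe choice, slide and replicate blocks, array weights and leaving out arrays were tried as alternatives.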

Additional observations from a re-analysis of the deposited data

Results flagged for a closer look

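For 14 combinations of a gene and a pair of populations, every DOX array lay on one side of the untreated arrays in 1 population and on the opposite side in the other. The share of all genes with such a pair was not counted. Separation in 1 population was common: in d1 BC, 4530 of 23963 genes had every DOX array above every untreated array. Values are the difference between the log2 fold changes with DOX, later-named population minus first-named. Oas1a gave -1.77 for d1 BC and HE1, -3.42 for d1 BC and HE2 and -4.02 for d1 BC and HP, being higher with DOX in d1 BC by 0.41. Rtp4, higher with DOX at 5 h by 0.75, gave -2.81 for 5 h and SM, -2.10 for 5 h and HE1, -4.22 for 5 h and HE2 and -4.89 for 5 h and HP. Bst2 gave -2.20 for d1 BC and HP, though in d1 BC its lower DOX array and its higher untreated array both read 1.70. Eif2ak2 gave 0.98 for 5 h and d1 BC and -1.12 for d1 BC and HP, and Stat2 gave 0.80 for d1 BC and HE2. None of these differences was tested.

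Trim30a gave -2.24 for HE1 and HP and -2.25 for HE2 and HP, being higher with DOX in both hemogenic endothelium populations and lower in HP. Stat2 gave -0.97 for HE2 and HP. These 3 differences were tested in the model, and none was called.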

How the results depend on the processing

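Signal over background is a limit for genes such as Ifit1, which were not well above background in HP DOX, HE1 DOX or d1 BC. No called gene changed sign under any alternative run. The median in HP ran from -1.68 to -1.06 over all settings and from -1.59 to -1.21 on leaving out 1 array. Counts of called genes moved more, and the cause was not tested.

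In HP, where 1 gene was called, 5 were called with normexp background correction, 2 with median scaling, 9 with the authors' processed values, 2 with the mean of all probes, 7 with slide as a fixed block, 11 with slide as a random block and 5 with array weights. None was called with detection required in all groups, where Ifit1 is not tested, and none with no filter on dim probes, with a fit on all features, with a fit of the groups compared only, or in the first version of the processing. Over the 18 versions of the processing, which were tried after results were seen, 0 or 1 gene was called, and Ifit1 was called in 10 and not in 8 (adjusted p 0.0374 to 0.0622). Over all settings, 0 to 128 genes of the whole array were called in HP, where 10 were called as reported.

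In the average over the sorted populations, where 7 were called, median scaling gave 4, detection in all groups 2, slide as a fixed block 12 and as a random block 17. From FLK1+ to 5 h (2 called), normexp, the authors' values and detection in all groups gave 0, and quantile normalization, median scaling, no filter, the mean of probes, slide as a fixed block and the groups compared only gave 1 each. From 5 h to d1 BC (3 called), slide as a random block gave 7, array weights 6 and the groups compared only 0. From d1 BC to SM (4 called), normexp, quantile normalization and detection in all groups gave 1, median scaling and the groups compared only 0, the authors' values and no filter 2, slide as a random block 8 and array weights 9. From d1 BC to HE1 (5 called), normexp gave 10, median scaling 3, array weights 12, and detection in all groups and the groups compared only 0. From HE1 to HE2 (0 called), quantile normalization gave 1, and the authors' values and both slide blocks 2. From HE2 to HP (0 called), the authors' values and slide as a random block gave 1. From HE1 to HP (6 called), the authors' values gave 11, both slide blocks 14, array weights 10 and the groups compared only 3. The difference between HP and HE1 gave 1 call with the authors' values.

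Leaving out 1 array at a time gave 0 to 1 called genes with DOX in SM, in HP, from FLK1+ to 5 h, from HE1 to HE2 and from HE2 to HP, 1 to 4 from 5 h to d1 BC, 0 to 3 from d1 BC to SM, 2 to 3 from d1 BC to HE1, 1 to 6 from HE1 to HP and 7 to 9 in the average. In HP none was called without HP replicate 2, HP DOX replicate 1 or HP DOX replicate 2. A lone array left in a group is assumed to vary like the other groups.

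Replicate numbers were shared between untreated and DOX groups. Deviations of same-numbered arrays from their group means correlated at 0.60 in HP, 0.54 in SM, 0.52 in d1 BC, 0.33 in HE1, 0.26 in HE2 and -0.15 at 5 h, with 2 pairs each. Both same-numbered pairs shared a slide in 5 of the 6 populations and 1 pair did at 5 h, so a shared number and a shared slide cannot be told apart in those 5. The labels name no shared batch, and the numbers do not settle a pairing. With a replicate block 1 gene of the list was called in HP, 7 in the average and 1 from d1 BC to SM, where 4 were called without it. With the numbers crossed at 5 h, an alternative chosen after seeing the data, 2 genes of the whole array were called, as with the block uncrossed, and none of the list.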

Other observations

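Some genes differed between arrays of 1 untreated group by more than most differences with DOX. Oasl1, an OAS-like antiviral protein, read -5.53, -0.40 and -6.29 in SM and -5.85 and -1.56 in HE1, and the high array of each group lay on the same slide. Irf7 read -0.40 and -3.90 in HE2. Zbp1, a sensor of left-handed nucleic acid, read -5.61 and -3.15 in HE1 and -5.43 and -2.80 in HE1 DOX, with the lower array of each group on the same slide. These genes and values were chosen after they were seen.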
